A study of Rattus norvegicus with 18 samples.

Results

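The 10 glycolytic enzyme genes considered here are Hk1, Pfkm, Aldoa, Aldoc, Gapdh, Pgk1, Eno1, Eno2, Ldha and Ldhb, taken as every probe set whose only gene symbol in the platform annotation is one of these, with the array's control probe sets left out. By that rule 7 of the 10 genes were measured, by 14 probe sets, out of 4736 genes with a probe set of 1 symbol on the array. Gapdh and Ldha each had 1 probe set that carries several symbols, and Eno2 had none, so these 3 genes were not analysed here. Of the 14 probe sets, 13 passed the filter on low values, which kept probe sets with a geometric mean intensity above 121 and left 4370 probe sets of 2820 genes.

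The tissue was the suprachiasmatic nucleus (SCN) of the hypothalamus, the seat of the master circadian clock, taken from Long-Evans rats that were adult and male. The labels state that they had lived in 12 h of light and 12 h of darkness, went into constant darkness at lights-off, and were sampled every 6 h from the following projected lights-on, which is circadian time (CT) 0. All groups share this strain, sex and lighting, and no genetic change or drug is named. Each of the 8 time points (0, 6, 12, 18, 24, 30, 36 and 42 h) was 1 pool of RNA from 5 rats, read on rat U34A arrays by 10 arrays of a first run, with arrays a and b at 24 h and 36 h, and by 8 arrays of a technical repeat. CT 12 (12 and 36 h) was set against CT 0 (0 and 24 h), CT 6 (6 and 30 h) against CT 18 (18 and 42 h), and day 2 (24 to 42 h) against day 1 (0 to 18 h).

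Glycolysis splits glucose into pyruvate in the cytosol and yields ATP and NADH. Brain cells share the pathway unevenly: astrocytes are known for strong glycolysis and for expressing aldolase C, and neurons for lactate dehydrogenase rich in the B subunit. In the SCN, glucose uptake is known to be higher in the subjective day, when its neurons fire more. Several of these genes are known targets of hypoxia-inducible factor 1, whose binding site often holds the core ACGTG, and clock factors bind the E-box CACGTG.

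Intensities are the authors' deposited values on a linear scale, and a pool's value is the mean of both runs on the log2 scale. Intensities of different probe sets are not comparable as amounts of RNA, and bright and dim serve here only to tell the probe sets of a gene apart. The Aldoc to Aldoa ratio and the summed marker intensities below are read only for how they vary over time. In a dissected tissue, fewer cells of a type and less RNA per cell cannot be told apart. The SCN peptide genes Avp and Sst averaged 1732 and 5541, and the probe set of Vip averaged 49.0 (30.8 to 78.6 over the pools) and lay below the filter. The first-run arrays of 12 h, 18 h and array b of 36 h (3 in all) stood apart in their hybridisation controls, at 4801 to 6370 against 1118 to 2417 on the other 15 arrays.

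No member probe set passed the test of a 24-h rhythm, of CT 12 against CT 0, of CT 6 against CT 18 or of day 2 against day 1 after adjustment. The abundant signals of phosphoglycerate kinase, enolase and lactate dehydrogenase B stayed within 1.31 to 1.63 times between their lowest and highest pool. Among the 13 tested probe sets the widest span was that of Aldoa, at 5.19 times. The dimmer Aldoc probe set followed at 3.27 times and the dimmer Pfkm probe set at 2.65 times. Between the runs the courses of Aldoa and of the dimmer Pfkm probe set correlated at r = 0.826 and 0.906, and that of the dimmer Aldoc probe set at -0.0045.

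The promoters of Aldoc and Pfkm are shown because each gene has a single RefSeq entry and a dim probe set on which the time-of-day results turn. Both are the 250 bases before the start of the gene in the RefSeq build GRCr8, 5′ to 3′ on the gene's strand, with the ACGTG core (either strand) in capitals. Aldoc lies at chr10:63715294-63715543 (+ strand) with the core 31 bases before the start, and Pfkm at chr7:131113849-131114098 (+ strand) with it 132 bases before the start.
Aldoc: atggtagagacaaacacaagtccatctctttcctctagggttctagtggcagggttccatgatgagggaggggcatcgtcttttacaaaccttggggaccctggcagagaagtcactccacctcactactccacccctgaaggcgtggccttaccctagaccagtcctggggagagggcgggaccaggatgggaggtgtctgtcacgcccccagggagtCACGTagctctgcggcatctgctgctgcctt
Pfkm: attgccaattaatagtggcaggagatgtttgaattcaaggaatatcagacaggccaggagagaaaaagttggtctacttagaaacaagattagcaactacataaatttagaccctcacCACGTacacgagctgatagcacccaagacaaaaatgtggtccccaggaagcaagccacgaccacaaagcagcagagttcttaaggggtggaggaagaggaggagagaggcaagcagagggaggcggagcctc
Of the 10 genes, 9 had 13 promoter entries there, and Pgk1 had none. ACGTG stood in 7 of the 13 entries, against 16.6% of 33469 promoters of the same length. The 7 entries include those of Eno2, Gapdh and Ldha, whose expression was not analysed here. The full E-box CACGTG, which contains ACGTG, stood in 1 entry (Ldha) against 5.59%, and the D-box letters TTACGTAA or TTATGTAA in 0 entries, against 0.108% and 0.828%. A match describes letters in this window and no binding was measured.

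**Figure D1:**
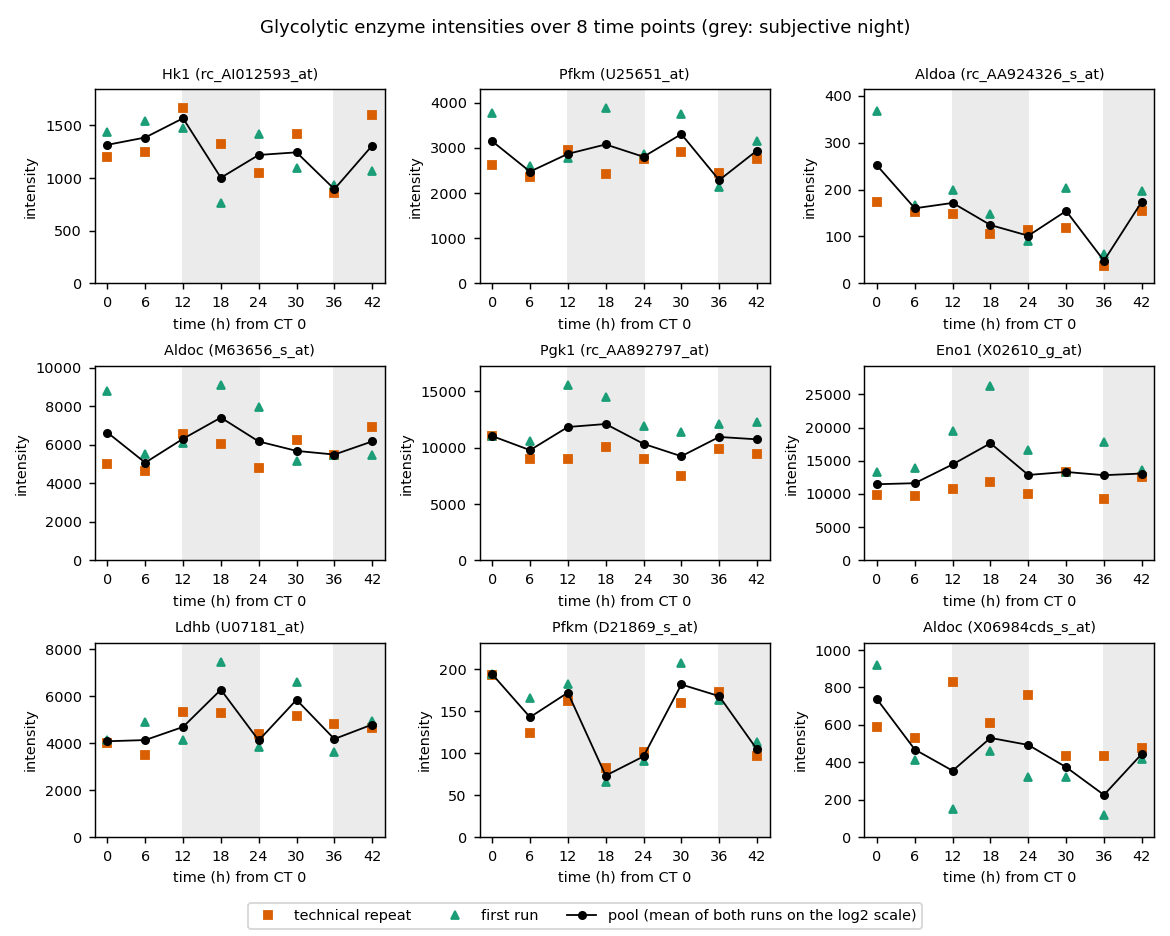
Intensity (linear, from 0) against time in h from CT 0 for the brightest probe set of each of the 7 genes and for the dimmer Pfkm and Aldoc probe sets, with grey bands over the subjective night. Black points are the pools, orange squares the technical repeat and green triangles the first run; the runs lie close for the dimmer Pfkm probe set and far apart at 12 h for the dimmer Aldoc probe set (829 in the repeat and 152 in the first run).

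Hexokinase 1, encoded by Hk1, phosphorylates glucose as it enters the pathway and is the main hexokinase of brain. Its brighter probe set (rc_AI012593_at) read 1316, 1385, 1568, 1003, 1219, 1244, 895 and 1309 in the pools at 0, 6, 12, 18, 24, 30, 36 and 42 h. The CT 12 pools held both the highest value (12 h) and the lowest (36 h), so the phases overlapped. The fitted difference was -0.10 ± 0.26 for CT 12 minus CT 0 and 0.20 ± 0.26 for CT 6 minus CT 18 (log2, SE), and limma's adjusted p was 0.933 and 0.972.
The dimmer Hk1 probe set (U27319exon_at) ran from 239 at 6 h to 366 at 36 h, highest in the pool where the brighter one was lowest. Across the 8 pools the pair had r = -0.703 (exact permutation p = 0.0538, 0.161 adjusted over 6 pairs of probe sets of 1 gene) and rho = -0.500 (exact permutation p = 0.216, adjusted 0.324). Without the pools at 18 and 36 h r was 0.07, and it was 0.309 in the technical repeat and -0.616 in the first run. On arrays a and b of 36 h the brighter Hk1 probe set read 575 and 1517, a wider gap than between any pools.

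Phosphofructokinase, whose muscle-type subunit Pfkm encodes, commits the sugar to glycolysis and is its main control point. The brighter probe set (U25651_at) read 3146, 2474, 2866, 3075, 2802, 3303, 2285 and 2941 over the 8 pools. Its CT 6 pools were the second lowest and the highest, and CT 6 minus CT 18 was -0.07 ± 0.21 (95% interval -0.53 to 0.38, adjusted p = 0.974 by limma).
The dimmer Pfkm probe set (D21869_s_at) read 194, 143, 172, 73.2, 96.1, 182, 168 and 104. Both CT 18 pools (73.2 and 104) lay below both CT 6 pools (143 and 182), and the pool at 24 h was also low. In the technical repeat the CT 6 arrays read 123 and 160 and the CT 18 arrays 81.8 and 96.3; in the first run they read 165 and 207 at CT 6 and 65.5 and 113 at CT 18. CT 6 was thus higher in each run and on each day.
The fitted CT 6 minus CT 18 difference of D21869_s_at was 0.88 ± 0.35 (a 1.84-fold higher signal at CT 6, unadjusted p = 0.0291), and it did not pass limma's adjustment over all probe sets (0.968). Its 24-h amplitude, the log2 distance from mean to peak, was 0.47 ± 0.17 with a peak at CT 7.31 (adjusted p = 0.756; exact permutation p = 0.248). Both probe sets of Pfkm had r = -0.08 over the pools (exact permutation p = 0.861, adjusted 0.861) and rho = 0.333 (p = 0.428, adjusted 0.513), with r at 0.234 in the technical repeat and -0.195 in the first run. At 24 h arrays a and b read 31.9 and 257 for D21869_s_at, so the 24-h value rests on arrays that disagreed.

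Fructose-bisphosphate aldolase cleaves the 6-carbon sugar into 3-carbon sugars, as aldolase A in most tissues and as aldolase C in brain. Aldoa had 1 probe set (rc_AA924326_s_at), with 251, 160, 171, 124, 102, 154, 48.4 and 174 over the 8 pools and a mean of 135, close to the filter. The pool at 36 h was lowest and that at 0 h highest. The repeat array at 36 h read 37.1, and first-run arrays a and b read 114 and 34.8.
Day 2 minus day 1 was -0.67 ± 0.34 for Aldoa (0.63 times, adjusted p = 0.997 by limma) and CT 12 minus CT 0 was -0.81 ± 0.55 (adjusted p = 0.684). Both intervals held 0.
Aldoc gave a bright and a dimmer probe set. The bright one (M63656_s_at) read 6645, 5077, 6319, 7420, 6179, 5689, 5498 and 6181. Both CT 6 pools (5077 and 5689) were below both CT 18 pools (7420 and 6181), with CT 6 minus CT 18 at -0.33 ± 0.18 (adjusted p = 0.968 by limma). Neither run showed this separation by itself. In the first run the 6 h array read 5522.2 and the 42 h array 5498.5. In the technical repeat the 30 h array read 6241 and the 18 h array 6034. The first-run array of 18 h, among those of high hybridisation controls, read 9124.
The dimmer Aldoc probe set (X06984cds_s_at) read 737, 468, 355, 530, 493, 374, 226 and 445. Both CT 12 pools (355 and 226) were below both CT 0 pools (737 and 493). CT 12 minus CT 0 was -1.09 ± 0.27 (0.47 times, unadjusted p = 0.00245, limma's adjusted p = 0.456), and the amplitude was 0.56 ± 0.14 with a peak at CT 23.3 (unadjusted p = 0.0073, adjusted 0.746; exact permutation p = 0.0254).
The runs gave different sizes for that Aldoc difference. CT 12 minus CT 0 of X06984cds_s_at was -0.16 ± 0.34 in the technical repeat (unadjusted p = 0.643 by limma) and -2.02 ± 0.50 in the first run (unadjusted p = 0.00253). Array b of 36 h read 41.7 and array a 333, and the 12 h array of the first run read 152 while the repeat read 829. With the 3 arrays of high hybridisation controls left out, a setting chosen after seeing the data, the difference was -0.19 (unadjusted p = 0.598 by limma). In that setting the pools at 12 and 18 h rest on the technical repeat and were shifted by a part of the mean offset between the runs; with no shift the difference was -0.10 (unadjusted p = 0.788 by limma).

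**Figure D2:**
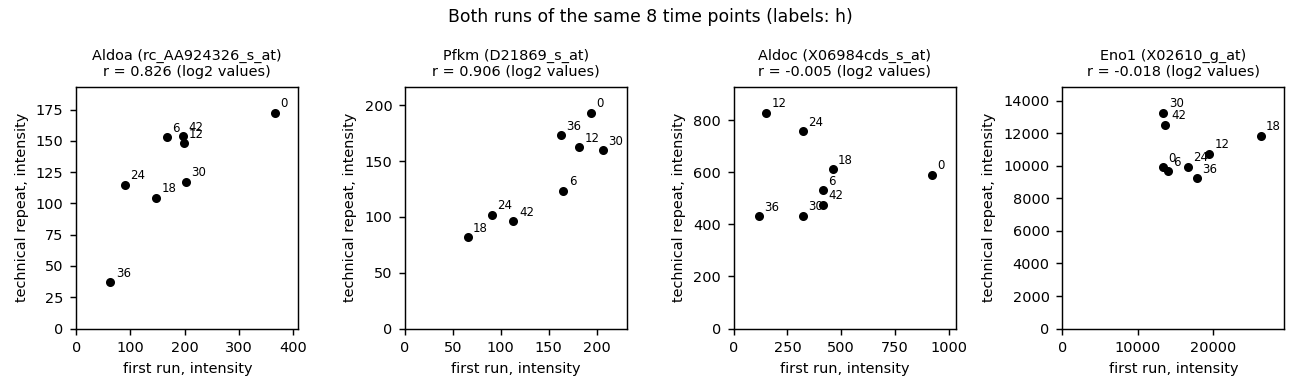
Intensity in the technical repeat (vertical) against the first run (horizontal), 1 point per time point, labelled in h, for Aldoa, the dimmer Pfkm and Aldoc probe sets and the brightest Eno1 probe set. On log2 values r is 0.826 for Aldoa and 0.906 for Pfkm, and near 0 in the other panels.

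The log2 ratio of Aldoc to Aldoa (brightest probe sets) was followed over time, since a ratio within an array cancels array scale. It was 4.73, 4.99, 5.20, 5.90, 5.93, 5.20, 6.83 and 5.15 over the 8 pools, highest at 36 h, where Aldoa was lowest. Its 24-h amplitude was 0.41 ± 0.36 (exact permutation p = 0.578). The correlation between runs was r = 0.605, given as a description. Ratios of Ldha to Ldhb and of Eno2 to Eno1 could not be made, as Ldha and Eno2 had no usable probe set.

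Phosphoglycerate kinase 1, encoded by Pgk1, makes the first ATP of the pathway. Its brightest probe set (rc_AA892797_at) read 11039, 9785, 11842, 12109, 10350, 9245, 10959 and 10746, the narrowest span of the 7 brightest probe sets at 1.31 times. Both CT 6 pools (9785 and 9245) were below both CT 18 pools (12109 and 10746), with a difference of -0.26 ± 0.17 (adjusted p = 0.968 by limma).
Another Pgk1 probe set (M31788_g_at) spanned 6556 to 8964. The dimmest (M31788_at) averaged 39.6 (22.2 to 74.6 over the pools, 3.36 times) and was below the filter. For the 2 tested Pgk1 probe sets r over the pools was 0.136 (exact permutation p = 0.755, adjusted 0.861) and rho 0.238 (p = 0.582, adjusted 0.582), with r at -0.05 in the technical repeat and 0.666 in the first run.

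Enolase 1, encoded by Eno1, makes phosphoenolpyruvate and is the enolase of astrocytes and most other tissues. Its brightest probe set (X02610_g_at) read 11465, 11621, 14458, 17642, 12863, 13315, 12826 and 13081. The pool at 18 h stood above the rest, and CT 6 minus CT 18 was -0.29 ± 0.20 (0.82 times, adjusted p = 0.968 by limma).
That pool's height came with 1 array. The 18 h array read 26245 in the first run and 11859 in the repeat. The 3 arrays of high hybridisation controls read 19462 to 26245 for this Eno1 probe set, above the 13273 to 17043 of the other 7 first-run arrays and the 9247 to 13266 of the repeat. Without these arrays CT 6 minus CT 18 of X02610_g_at was -0.11 with the shift for the run offset (unadjusted p = 0.524 by limma) and -0.0019 with no shift (unadjusted p = 0.992).
The brightest Pgk1 probe set showed the same order of arrays. This probe set, rc_AA892797_at, read 13709 to 15568 on the 3 arrays, 10566 to 13428 on the other first-run arrays and 7527 to 11070 in the repeat. The other probe sets of these genes did not follow that order. On the 3 arrays M31788_g_at of Pgk1 read 6104 to 9852, against 6602 to 8482 on the other first-run arrays and 6096 to 9275 in the repeat. Likewise X02610_at of Eno1 read 1134 to 2055, against 1331 to 1984 and 870 to 1543. Without the 3 arrays CT 6 minus CT 18 of rc_AA892797_at was -0.20 with the shift (unadjusted p = 0.223 by limma) and -0.13 with no shift (unadjusted p = 0.467). The phase and day contrasts of the other members were refitted in the same way, and no member probe set was called. Beyond these refits the part of these arrays was not tested. Over the pools X02610_at spanned 1131 at 36 h to 1661 at 18 h.

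**Figure D3:**
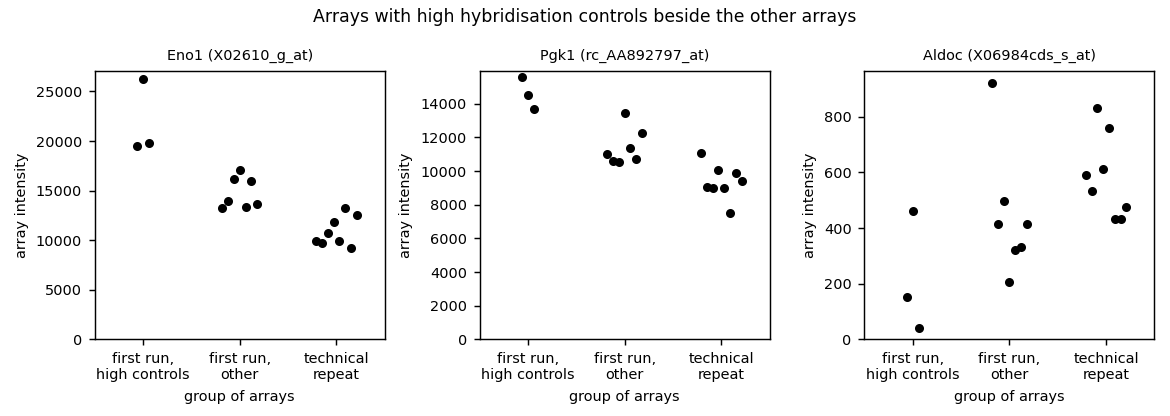
Intensity on each array (linear, from 0) for the brightest Eno1 and Pgk1 probe sets and the dimmer Aldoc probe set, in the 3 first-run arrays with high hybridisation controls, the other 7 first-run arrays and the 8 arrays of the technical repeat. The 3 arrays stand above all others for Eno1 and Pgk1, and array b of 36 h (41.7) is the lowest for Aldoc.

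Lactate dehydrogenase B, encoded by Ldhb, interconverts lactate and pyruvate. Its probe sets read 4081, 4132, 4691, 6276, 4117, 5846, 4177 and 4793 (U07181_at) and 3677, 3999, 3994, 6004, 4285, 5834, 3985 and 4468 (U07181_g_at). Both were highest at 18 h and next at 30 h, which are opposite phases (CT 18 and CT 6). For U07181_at the 18 h and 30 h arrays read 5284 and 5175 in the technical repeat and 7455 and 6605 in the first run. The highest repeat value of U07181_at was that of 12 h (5333.5). For U07181_g_at the 18 h and 30 h arrays read 4328 and 5015 in the technical repeat and 8329.5 and 6788 in the first run. The first-run array of 18 h was among those of high hybridisation controls. CT 6 minus CT 18 was -0.16 ± 0.25 for U07181_at and -0.10 ± 0.27 for U07181_g_at (adjusted p = 0.972 and 0.974 by limma).
The pair of Ldhb probe sets moved together over the pools (r = 0.943, exact permutation p = 0.003, adjusted 0.0180; rho = 0.786, exact permutation p = 0.0279, adjusted 0.0838). It was the only one of 6 pairs to pass by r. Both read the same transcript record, and without the pools at 18 and 30 h r was 0.530. It was 0.681 in the technical repeat and 0.911 in the first run.

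Counts over the 13 tested probe sets were set beside all 4370. For the rhythm, 0 of 13 passed the adjusted threshold of 0.05 by limma (0% of all), and 1 passed unadjusted (the dimmer Aldoc one, against 6.36% of all). Their median amplitude was 0.13, against 0.16 over all tested probe sets.
For CT 12 minus CT 0, 0 of 13 passed by limma (0% of all), 1 passed unadjusted, in the lower direction (8.67% of all, with 4.19% higher and 4.49% lower), and 7 of 13 were above 0, with a median of 0.01 and 0.01 over all.
For CT 6 minus CT 18, 0 of 13 passed by limma (0.0229% of all), 1 passed unadjusted, in the higher direction (4.26% of all, with 1.88% higher and 2.38% lower), and 10 of 13 were below 0, with a median of -0.16 against -0.02 over all, of which 47.1% were above 0. The 18 h pool includes a first-run array of high hybridisation controls. Without the 3 such arrays (no shift for the run offset) the differences were -0.0017 and -0.03 for Hk1 and 0.10 and 0.80 for Pfkm. They were 0.22 for Aldoa, -0.18 and -0.32 for Aldoc, and -0.13 and -0.11 for Pgk1. For Eno1 they were -0.0019 and -0.01, and for Ldhb -0.03 and 0.14 (brighter probe set first). With the shift, in the same order, they were 0.02 and -0.12 for Hk1, 0.05 and 0.77 for Pfkm, and 0.07 for Aldoa. They were then -0.24 and -0.24 for Aldoc, -0.20 and -0.11 for Pgk1, -0.11 and -0.12 for Eno1, and -0.07 and 0.05 for Ldhb.
For day 2 minus day 1, 0 of 13 passed by limma (0% of all), 1 passed unadjusted (the dimmer Aldoc one, lower at -0.45 ± 0.14; 3.96% of all, with 1.9% higher and 2.06% lower) and 11 of 13 were below 0, with a median of -0.06 and 0.00 over all. These counts are descriptions, as the members share arrays and pools.

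**Figure D4:**
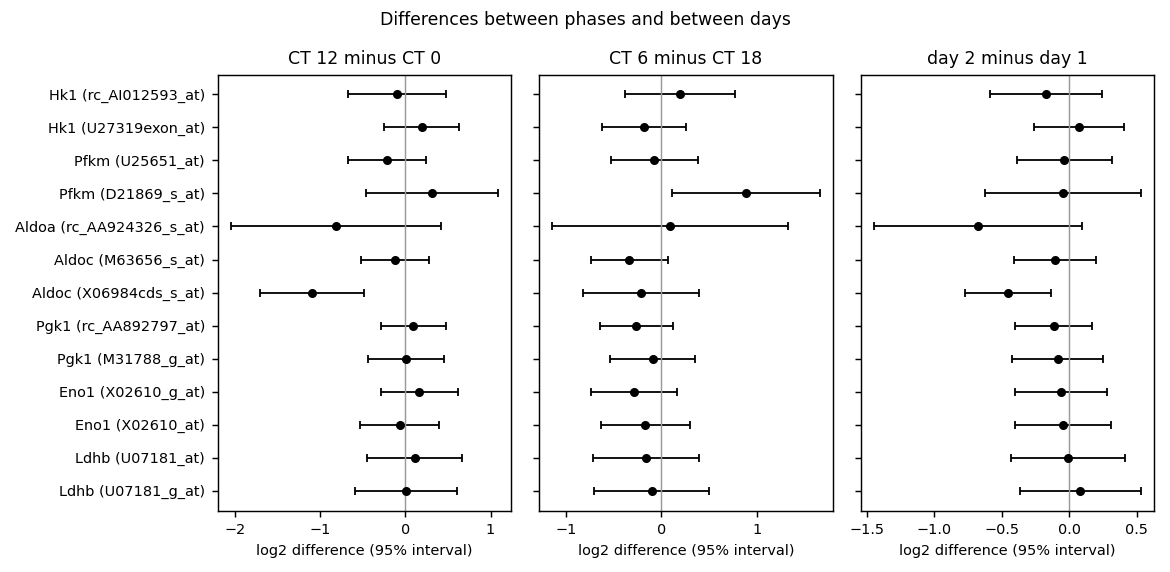
Log2 difference with its 95% interval for the 13 tested probe sets, in CT 12 minus CT 0, CT 6 minus CT 18 and day 2 minus day 1. The interval leaves 0 for the dimmer Aldoc probe set at CT 12 minus CT 0 (-1.70 to -0.48) and on day 2 (-0.77 to -0.14), and for the dimmer Pfkm probe set at CT 6 minus CT 18 (0.11 to 1.65), none of which passed adjustment over all probe sets.

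Whether the 8 pools differed by more than the spread between the runs was asked in 1 limma fit, a test that holds no spread between animals. Arrays a and b were averaged before this fit, so the gap between them is not part of its error. By limma 0 of 13 passed (0.0229% of all), and 2 passed unadjusted (5.93% of all). These were Aldoa (adjusted p = 0.212 by limma, unadjusted 0.000291) and the dimmer Pfkm probe set D21869_s_at (adjusted p = 0.328 by limma, unadjusted 0.000525). On arrays a and b of 24 h, Aldoa differed by -2.67 and D21869_s_at by 3.01 (b minus a, log2), which these p-values do not take in. The SD between the runs ran from 0.14 to 0.71 over the 13 probe sets (log2, run means removed), lowest for M31788_g_at of Pgk1 and highest for X06984cds_s_at of Aldoc, against a median of 0.30 over all tested. The dimmer Aldoc probe set had a limma p of 0.265 there.
Between runs, Aldoa had r = 0.826 over the 8 time points (exact permutation p = 0.00397, 0.0278 adjusted over the 7 genes) and rho = 0.762 (p = 0.0368, adjusted 0.257). Without 24 and 36 h, r was 0.655 (exact permutation p = 0.147). Aldoa was the only one of 7 genes to pass by r, and its call was lost under 8 of 15 other settings, among them quantile normalization (adjusted 0.0766), scaling to the median (adjusted 0.0743) and leaving out the pool at 0, 12, 36 or 42 h. The median r was 0.132 over the 7 genes and 0.0943 over all tested probe sets.
The dimmer Pfkm probe set had r = 0.906 between runs (exact permutation p = 0.00188, outside the 7 adjusted) and 0.840 without 18 and 24 h. The brightest Eno1 probe set had r = -0.02 and the brightest Aldoc one r = -0.320. Repeat minus first run averaged -0.60 for Eno1 (X02610_g_at), lower in the repeat at all 8 time points, and -0.40 for Pgk1 (rc_AA892797_at). For the dimmer Aldoc probe set (X06984cds_s_at) it averaged 0.79, lower in the repeat at only 1 time point. The median was -0.06 over all tested probe sets.

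The pool at 36 h was lowest for 6 of the 13 probe sets (5 in each run), a pattern seen after the values were known, and it was lowest for 14.8% of all tested probe sets. In the same pool the 3′ to middle ratio of the GAPDH control, which rises when RNA is degraded or copied short, was highest at 7.68, and at 0 h it was lowest at 3.56. Over the 8 pools this ratio ran against the dimmer Aldoc probe set (r = -0.929, exact permutation p = 0.00685, 0.0890 adjusted over 13 probe sets; rho = -0.762, p = 0.0368, adjusted 0.451) and against Aldoa (r = -0.853, exact permutation p = 0.0212, adjusted 0.138; rho = -0.690, p = 0.0694, adjusted 0.451).
Without the pools at 0 and 36 h, r was -0.593 for the dimmer Aldoc probe set and -0.152 for Aldoa. Within the technical repeat r was -0.754 and -0.714, and within the first run -0.833 and -0.874. Of all tested probe sets, 3.84% had r below -0.7. Other control ratios gave another order. In the first run the 3′ to 5′ ratio of GAPDH was 35.2 at 18 h and 26.2 and 21.7 on arrays a and b of 36 h. At 0 h it was 8.55, the lowest of that run. The 3′ to 5′ ratio of the actin control was 17.0 at 0 h and 3.67 and 4.32 on those 36 h arrays. In the technical repeat the actin ratio was 4.47 at 0 h and 2.25 at 36 h. The part of RNA quality in these courses was not tested.

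**Figure D5:**
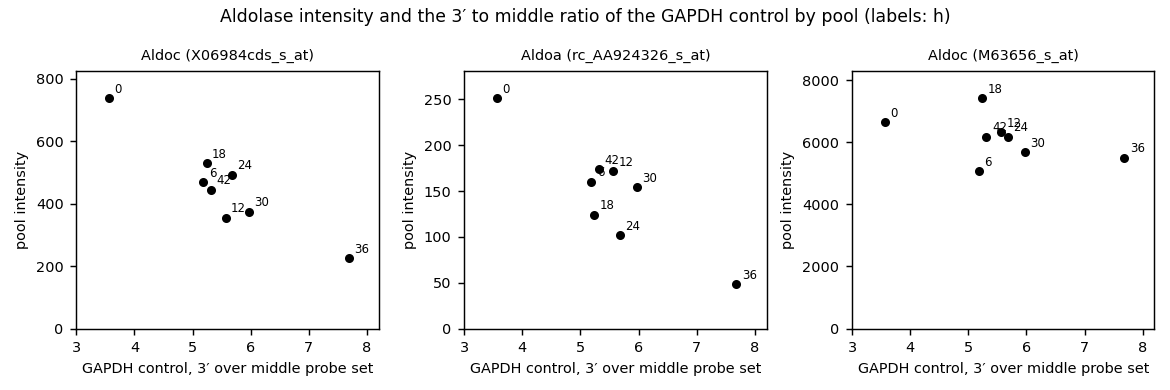
Pool intensity (linear, from 0) against the 3′ to middle ratio of the GAPDH control for the dimmer Aldoc probe set, Aldoa and the bright Aldoc probe set, 1 point per pool, labelled in h. The pools at 36 h (ratio 7.68) and 0 h (ratio 3.56) hold the ends of both Aldoa and the dimmer Aldoc probe set.

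Among the 21 pairs of different genes (brightest probe sets), 0 correlations passed adjustment over the pairs. The highest was Eno1 with Ldhb (r = 0.799, exact permutation p = 0.0122, adjusted 0.226; rho = 0.857, p = 0.0107, adjusted 0.195), and 14 of 21 were above 0. Without the 2 farthest pools its r was 0.471, and it was 0.547 in the technical repeat and 0.256 in the first run.

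The rest of the pathway gave no call either. Of 20 other glycolytic genes 7 were tested (1 probe set each), and 0 passed the rhythm test by limma while 1 did unadjusted. That was Pfkfb1, which makes and breaks down an activator of phosphofructokinase, whose curve peaked at CT 12.9 (amplitude 0.34 ± 0.11, limma's adjusted p = 0.746). Hk2 (0.17), Pfkfb2 (0.08) and pyruvate kinase Pkm (0.08) had smaller amplitudes.
In the pentose phosphate pathway Tkt and Taldo1 had amplitudes of 0.08 and 0.04. Glycogen and sugar branch enzymes had 0 of 9 called by limma (0 unadjusted), with Gpd2, the mitochondrial glycerol phosphate dehydrogenase, at 0.38 ± 0.14 (adjusted p = 0.756 by limma). For enzymes of the TCA cycle and pyruvate dehydrogenase 0 of 13 were called (0 unadjusted). Hypoxia-responsive genes outside glycolysis had 0 of 4 called (0 unadjusted), among them P4ha1, a collagen prolyl hydroxylase, at 0.36 ± 0.13, and the glucose transporter gene Slc2a1 at 0.13 ± 0.11.

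Markers of the cell types that could share the dissection had these levels. The summed intensity of 10 astrocyte markers ran from 48876 at 0 h to 59838 at 12 h, and 0 of 9 tested passed the rhythm test by limma (1 unadjusted, Fabp7). That of 10 neuron markers ran from 18106 at 6 h to 21148 at 0 h, with 0 of 9 called (0 unadjusted). Of the SCN peptide genes 0 of 5 were called (1 unadjusted). That was Avp, with an amplitude of 0.31 ± 0.10 (adjusted p = 0.746 by limma).
Oligodendrocyte markers summed to 33685 to 38518 and microglial markers to 855 to 1113, with 0 of 7 and 0 of 4 called (0 unadjusted in each). Vessel and blood markers summed to 5316 at 24 h to 9812 at 0 h, and choroid plexus markers to 3604 at 12 h to 5312 at 24 h, with 0 of 5 and 0 of 4 called (0 and 1 unadjusted). Each sum is weighted to its brightest probe sets, such as that of Igf2 for choroid plexus (mean 3656).
The 1 unadjusted rhythm was that of Ttr, the transthyretin gene of choroid plexus, which read 172, 308, 158, 52.3, 94.6, 305, 112 and 106 over the 8 pools (amplitude 1.02, adjusted p = 0.321 by limma). Both its CT 6 pools (308 and 305) lay above both CT 18 pools (52.3 and 106), and CT 6 minus CT 18 was 2.04 ± 0.37 (adjusted p = 0.486 by limma, unadjusted 0.000222). The dimmer Pfkm probe set D21869_s_at differed in the same direction in that contrast, by 0.88 ± 0.35. The other tested choroid plexus markers did not follow Ttr there, at -0.20 (Kl), -0.23 (Igfbp2) and 0.08 (Igf2). The part of choroid plexus and of the other cell types in the enzyme courses was not tested.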

How the data were processed

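The authors deposited a linear intensity for each probe set. How probes were summarised, and to what target arrays were scaled, is not given in the sources used here. Scaling per array had been done by the authors, as the mean after trimming 2% at each end was 500.7 to 500.8 on all 18 arrays, and was kept. For arrays, their number limits the precision. Median intensities were 136.5 to 152.3 in the first run and 107.9 to 127.6 in the technical repeat.

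Values under the 10th percentile of the table (12.1) were set to it and taken to log2. Arrays a and b, assumed to read the same pool, were averaged first, then the runs. The 59 control probe sets of 8799 were left out. Symbols came from the platform annotation (7006 probe sets with 1 symbol, 308 with several, 1426 with none), and the gene number of 6985 was found in the table of current RefSeq genes, which changed 0 symbols.

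The replicate is the pool, so p-values measure the spread between pools of 1 experiment and include array error. A 24-h cosine and sine were fitted to the 8 pools with limma 3.58.1 in R 4.3.3 (5 residual and 5.13 prior degrees of freedom), with a day term added for the day comparison. Benjamini-Hochberg adjustment ran over the 4370 tested probe sets at a threshold of 0.05. Exact permutation tests are two-sided for correlations (40320 pairings); for amplitudes the 315 distinct arrangements of the pools set a smallest p of 0.0032. The fits were tested on simulated pools. Of 3 planned isoform ratios 1 could be made.

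Every probe set of every member is named, a gene being represented by its brightest; of other lists up to 4 genes per list could be named by the rhythm p. The members and lists were chosen with earlier results of these data known. Alternatives were other normalizations, filters, floors, a pseudocount, limma's trend and robust options, each run by itself, dropping arrays a or b, and each pool left out; leaving out the arrays of high hybridisation controls, with and without a shift for the mean offset between runs, was added after seeing the data.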

Additional observations from a re-analysis of the deposited data

Results flagged for a closer look

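The dimmer Hk1 probe set (U27319exon_at) read 365.8 in the pool at 36 h, far from the other 3 pools of day 2, which read 278 to 284. The gap exceeded Dixon's 95% critical value for 4 samples. Of 28 groups examined this was the only flag, and chance flags about 1 in 20. The difference in rhythm between the days was also fitted, and 0 member probe sets were called by limma (smallest adjusted p = 1.00).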

How the results depend on the processing

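The count of member probe sets called stayed 0 under 22 alternatives for the rhythm, CT 12 minus CT 0 and CT 6 minus CT 18, under 21 for day 2 minus day 1 and under 18 for pool differences. Leaving out the 3 arrays of high hybridisation controls was included, with and without a shift for the run offset. The setting with no shift was not run for pool differences, whose fit takes the run as a block. At an unadjusted p the count was 0 to 2, 0 to 2, 0 to 1, 0 to 2 and 0 to 3. The smallest adjusted p by limma over these was 0.393, 0.172, 0.705, 0.551 and 0.0794 for the 5 results. The Aldoc to Aldoa ratio had an amplitude of 0.21 to 0.69 (exact permutation p 0.197 to 0.895). Agreement of the runs was called for 1 gene, Aldoa, and for 0 genes under quantile normalization (r = 0.804), median scaling (0.795), without arrays a (0.753) and without arrays b (0.731). With each pool left out in turn the count was 0 to 1 and Aldoa's r 0.697 to 0.911; it was 0 without the pool at 0, 12, 36 or 42 h. The cause was not tested. Among values not called as reported, the sign changed in 32 of 283 for CT 12 minus CT 0, 12 of 283 for CT 6 minus CT 18, 39 of 270 for day 2 minus day 1 and 12 of 90 for run agreement. With the day as a term, which pairs the phases within each day, 0 member probe sets were called by limma for CT 12 minus CT 0 (smallest adjusted p = 0.172, 1 unadjusted) or CT 6 minus CT 18 (0.980, 1 unadjusted). Arrays a and b of 1 time point differed most, among the tested members, for the dimmer Pfkm probe set (3.01 at 24 h, b minus a, log2), Aldoa (-2.67 at 24 h) and the dimmer Aldoc probe set (-3.00 at 36 h), which limits what these signals can show.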
